A study of Homo sapiens with 28 samples.

Results

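The genes described here are named for enzymes that add methyl groups to the lysines of histones or take them off, though not every one acts on histones. They were chosen by name, as the protein-coding genes whose symbols begin with KMT, KDM or SETD. The rule gave 39 genes of 20033 in the annotation, with 8 KMT, 20 KDM and 11 SETD symbols. A peak was given to a gene when its summit, on the strand of the gene, lay between 1000 bases upstream of the gene start and the gene end. In all, 2669 of 496678 peaks met this rule.

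Histone lysine methylation marks active and silent chromatin. KMT2A, KMT2B, KMT2C, KMT2D, SETD1A and SETD1B methylate H3K4 at promoters and enhancers, and SETD2 methylates H3K36 in transcribed gene bodies. SETDB1 methylates H3K9 in silent chromatin, and the KMT5 enzymes methylate H4K20. The KDM1 and KDM5 enzymes remove methyl groups from H3K4, KDM2 enzymes from H3K36, KDM3 and KDM4 enzymes from H3K9 and KDM6 enzymes from H3K27. N6-methyladenosine (m6A), a methyl mark on RNA, is known in messenger RNA for long internal exons and for the stop codon region, and is most often found in a DRACH context, that is A, G or U, then A or G, then AC, then A, C or U.

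The study listed m6A peaks on chromatin-associated RNA (caRNA), which is purified with the chromatin pellet of fractionated cells, by methylated RNA immunoprecipitation sequencing (MeRIP-seq). The 14 immunoprecipitation (IP) libraries came from HepG2 WT (n = 2, a hepatoma line), K562 WT (n = 2, a myelogenous leukaemia line), K562 Control and K562 RBFOX2 KD (n = 2 each), and NB4 Control and NB4 RBFOX2 KD (n = 3 each, an acute promyelocytic leukaemia line). The knockdown (KD) asks how m6A on caRNA depends on RBFOX2, an RNA-binding protein. Control and KD cells both carried a short hairpin RNA from a lentivirus, and the labels do not say which of the hairpins against RBFOX2 was used. WT cells carried none. The other 14 of the 28 samples are input libraries, which are not used here.

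Lists held 22700 to 44088 peaks, and 144 to 222 of them lay in these genes. Line markers were most complete in the line they belong to. In HepG2 WT, 6 of 8 hepatocyte markers had a sense peak in any library. In the K562 groups 7 or 8 of 8 erythroid markers had one, and in the NB4 groups 7 of 8 promyelocyte markers. The lists were not clean. Of the 8 erythroid markers, GFI1B, EPOR and GATA1 had a peak in every NB4 RBFOX2 KD library, and EPOR also in NB4 Control and HepG2 WT. Of the 8 promyelocyte markers, CSF3R, SPI1 and AZU1 had a peak in K562 WT, SPI1 in the other K562 groups and CSF3R in HepG2 WT. The hepatocyte marker HNF4A had one in K562 WT. The value given for a gene is the highest percentile, among all peaks of its library, of the -log10 q-value of its sense peaks, where 100 is the most significant peak and 0 means that no sense peak was listed. It describes how prominent the best peak was in its list. Peak lists hold no transcript level, so more RNA and more methylation of the same RNA cannot be told apart.

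Of the 39 genes, 34 had a sense peak in at least 1 library and 30 had one in all 14. That is 76.9% of the genes, against 25.4% of all protein-coding genes. Related lists were also high, at 71.4% of 7 other histone demethylase genes, 66.7% of 15 genes for subunits of these complexes and 47.4% of 19 other histone methyltransferase genes. For the 34 genes with a peak the median over libraries had a median of the 92.7th percentile, against the 50.3th for the 12628 protein-coding genes with a peak. With genes without a peak included, it was 91.3 for the 39 genes and 91.6 for the 19 other methyltransferase genes. The 7 other demethylase genes had 76.8 and the 15 subunit genes 73.5. These enzymes are long proteins, and the median coding sequence was 3486 bases against 1269 for all genes. Among genes with 3000 to 6000 coding bases, 17 of 18 histone enzyme genes had a peak in all 14 libraries, against 39.4% of 1969 genes of that length. Above 6000 coding bases it was 5 of 5, against 42.1% of 480. KDM1B, KDM4D, KDM4E, KDM4F and SETD9 had no sense peak in any library. SETD9 had antisense peaks in all 14 libraries, 21 in all. KDM1A, KDM5D, KMT5A and SETD7 had a sense peak in some libraries only. KDM5D lies on the Y chromosome and its values are not given.

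**Figure D1:**
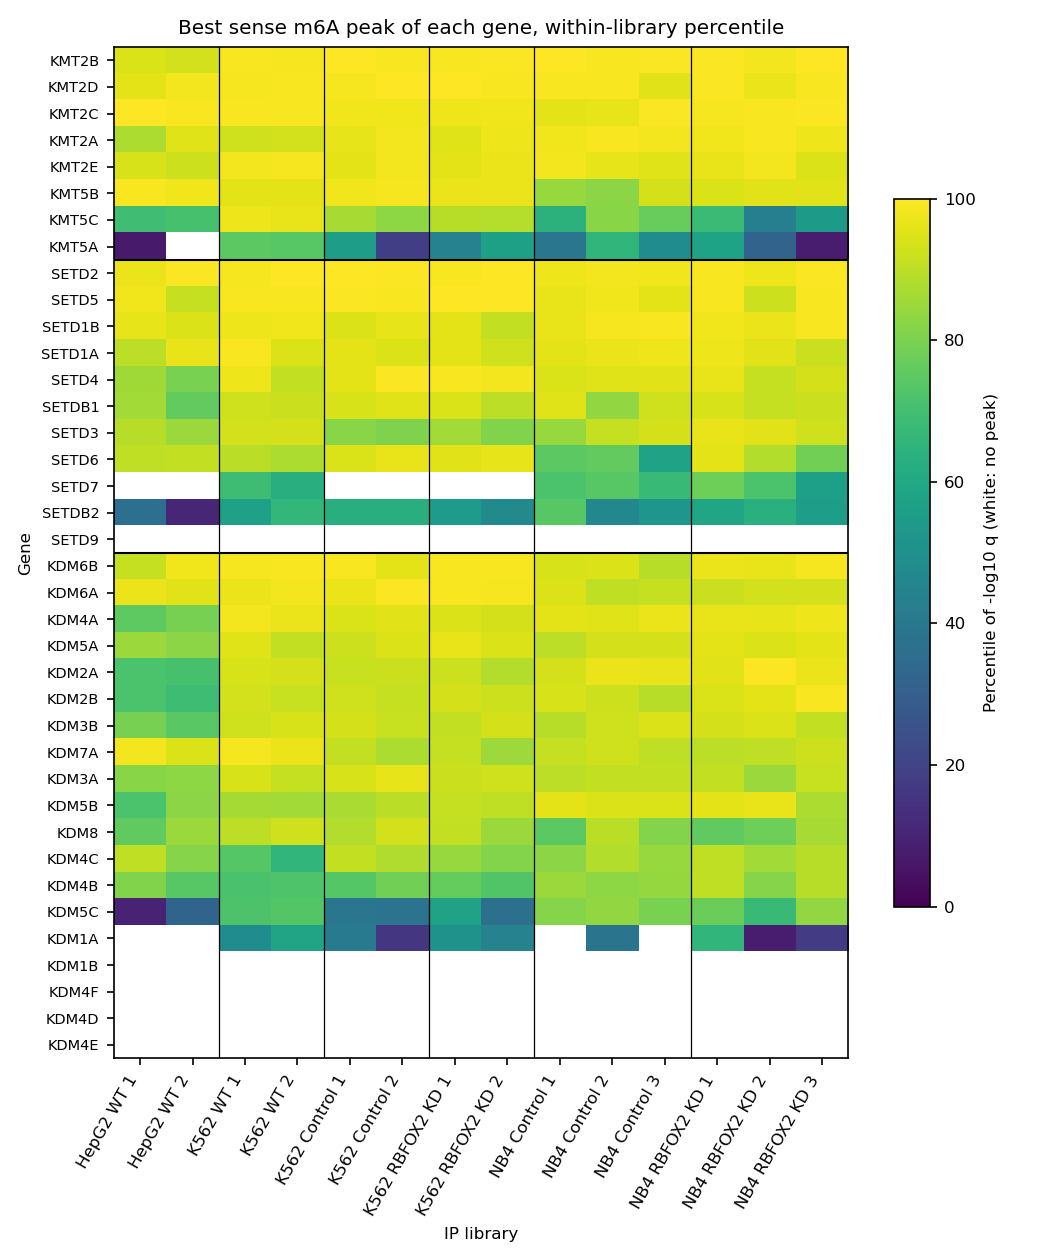
Best sense peak of 38 of the 39 genes (rows; KDM5D is not drawn) in the 14 IP libraries (columns), as the percentile of -log10 q within the library, with white for no peak. Rows are ordered within the KMT, SETD and KDM groups by their median, and 30 rows hold a value in every column, while KDM1B, KDM4D, KDM4E, KDM4F and SETD9 are white throughout.

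The windows below come from the recurrent region with the highest median percentile in each of the 8 genes with the highest medians, and from KDM5A and KDM4B. A region is a set of overlapping peaks merged over the libraries, and recurrent means listed in every library. KDM5A and KDM4B were added after their values were seen to show a summit before a gene start and a summit in an intron. The printed KDM5A region had a median percentile of 88.9 and was not its strongest, since a region in exon 27 had 93.3. Each window is written 5′ to 3′ on the strand of the RNA from hg38, with T for U, 40 bases to either side of the median summit. In a wide region the median summit need not be the summit of the strongest peak. DRACH matches are in capitals. The window of SETD5 is cut to 29 bases because it lies in a 3′ UTR.
SETD2, coding exon 12, chr3:47084106-47084186, minus strand: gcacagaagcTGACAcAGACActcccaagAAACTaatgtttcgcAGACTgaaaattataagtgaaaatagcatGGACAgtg
KMT2B, coding exon 3, chr19:35720829-35720909, plus strand: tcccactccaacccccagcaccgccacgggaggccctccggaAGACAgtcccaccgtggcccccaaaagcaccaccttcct
KMT2D, coding exon 49, chr12:49026547-49026627, minus strand: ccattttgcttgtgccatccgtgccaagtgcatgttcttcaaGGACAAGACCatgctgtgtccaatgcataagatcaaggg
SETD5, 3′ UTR in exon 23, chr3:9476144-9476172, plus strand: cagctgcctctgGAACCtaggccgagcat
KMT2C, coding exon 44, chr7:152159024-152159104, minus strand: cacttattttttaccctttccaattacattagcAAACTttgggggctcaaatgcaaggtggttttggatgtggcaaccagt
KMT2A, coding exon 3, chr11:118473661-118473741, plus strand: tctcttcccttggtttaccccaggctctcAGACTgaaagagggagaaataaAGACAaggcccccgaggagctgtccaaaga
KDM6B, coding exon 12, chr17:7849168-7849248, plus strand: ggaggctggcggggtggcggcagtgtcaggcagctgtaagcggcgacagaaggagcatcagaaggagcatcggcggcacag
SETD1B, coding exon 6, chr12:121809759-121809839, plus strand: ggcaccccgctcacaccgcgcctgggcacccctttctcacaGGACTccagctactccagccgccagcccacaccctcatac
KDM5A, before the gene start, chr12:389354-389434, minus strand: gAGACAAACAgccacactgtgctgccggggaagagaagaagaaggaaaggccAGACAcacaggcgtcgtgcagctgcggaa
KDM4B, intron 11, chr19:5122914-5122994, plus strand: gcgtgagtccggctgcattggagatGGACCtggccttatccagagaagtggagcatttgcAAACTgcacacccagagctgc

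The KDM6B window held no DRACH match and the SETD2 window held 5. Over all peaks of the histone enzyme genes, a DRACH match within 25 bases of the summit on the RNA strand was found in 61.8% to 73.3% of peaks by library, with a median of 67.6%. For all sense peaks of protein-coding genes the median was 72.1%, and in windows of the same length 300 bases away the medians were 55.6% and 59.1%. GGACT, one form of DRACH, was found in a median of 7.97% of peaks of these genes and 9.49% of all sense peaks. These counts describe letters in a window and not methylated sites.

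The H3K4 methyltransferases were prominent in every library. Over the 14 libraries KMT2B (ENSG00000272333.8) ranged from the 93.2th to the 99.9th percentile with a median of 99.0, and KMT2D (ENSG00000167548.18) from 95.6 to 99.7 with a median of 98.9. KMT2C (ENSG00000055609.21) ranged from 95.8 to 99.8 with a median of 98.8. KMT2A (ENSG00000118058.25), the gene rearranged in MLL leukaemias, ranged from 87.6 in HepG2 WT 1 to 99.1, with a median of 97.4. SETD1B (ENSG00000139718.12) ranged from 90.7 to 99.1 with a median of 96.9. Of the other strong genes, SETD2 (ENSG00000181555.22) had the narrowest range of the genes with a peak, from 97.1 to 99.8. SETD5 (ENSG00000168137.20), a SET domain protein, ranged from 91.1 to 99.7, and the H3K27 demethylase gene KDM6B (ENSG00000132510.11) from 89.4 to 99.2. The ranges of these 8 genes overlapped, so the order among them lies within their spread over libraries. In all, 8 genes stayed at or above the 90th percentile in every library, namely KDM6A, KMT2B, KMT2C, KMT2D, KMT2E, SETD1B, SETD2 and SETD5.

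The peaks behind these values were strong by the folds in the lists. At the printed SETD2 summit the fold over the local background had a median of 12.3 over the 14 libraries (5.99 to 29.9), and the -log10 q-value a median of 288. The KMT2C summit lay in an exon of only 210 bases and had a median fold of 13.8. KMT2A exon 3 had a lower median fold, 7.07. The folds at the KDM5A summit before the gene start, 74 bases upstream, ranged from 1.91 to 13.9. KMT2A exon 3 is also an exon of the overlapping gene ENSG00000285827 on the same strand, and 71 of the KMT2A peaks were shared with it. All 43 peaks of KDM4A were shared with ENSG00000284989, and 22 of KMT2D with ENSG00000288710, so their values are uncertain as values of 1 gene. The KDM4C region that recurs in all 14 libraries, in intron 4, lies in an exon of the actin pseudogene ACTG1P14 on the same strand, so the KDM4C values given below are uncertain in the same way.

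The number of peaks followed a different order. SETD1B held the most, 202 over all libraries and 13 to 16 in each. KMT2A followed with 184 (10 to 25 in each), KDM5A with 181 (11 to 17), KMT2D with 176 (10 to 18) and KMT2C with 167 (9 to 18). By subfamily, the 7 KMT2 and SETD1 genes had a median of 11.5 peaks a library and a median percentile of 97.4. The 2 KDM2 genes had a median percentile of 93.1, the 2 KDM6 genes 96.8 and the 3 KMT5 genes 79.6. KDM1A, the flavin-dependent H3K4 demethylase, reached at most the 66.0th percentile and was listed in 10 libraries. SETDB2 ranged from 10.7 to 74.2 in the 14 libraries, while its relative SETDB1 ranged from 76.0 to 95.2.

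Merging overlapping peaks gave 337 regions in the 34 genes. Of these, 86 were listed in all 14 libraries and 79 in 1 library only. The 86 recurrent regions came from 30 genes, and 54 of them had their summit in a coding exon, 16 in an intron, 13 in a 3′ UTR, 2 before the start of the transcript and 1 in a 5′ UTR. Coding regions recurred in 46.2% of 117 cases and 3′ UTR regions in 50.0% of 26, but intron regions in 9.70% of 165. Of the 79 regions seen in 1 library, 30 came from K562 Control 2, 8 of them in KMT2A, and the other libraries gave 0 to 7 each. K562 Control 2 therefore stands apart, and values without it are given beside the K562 results.

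**Figure D2:**
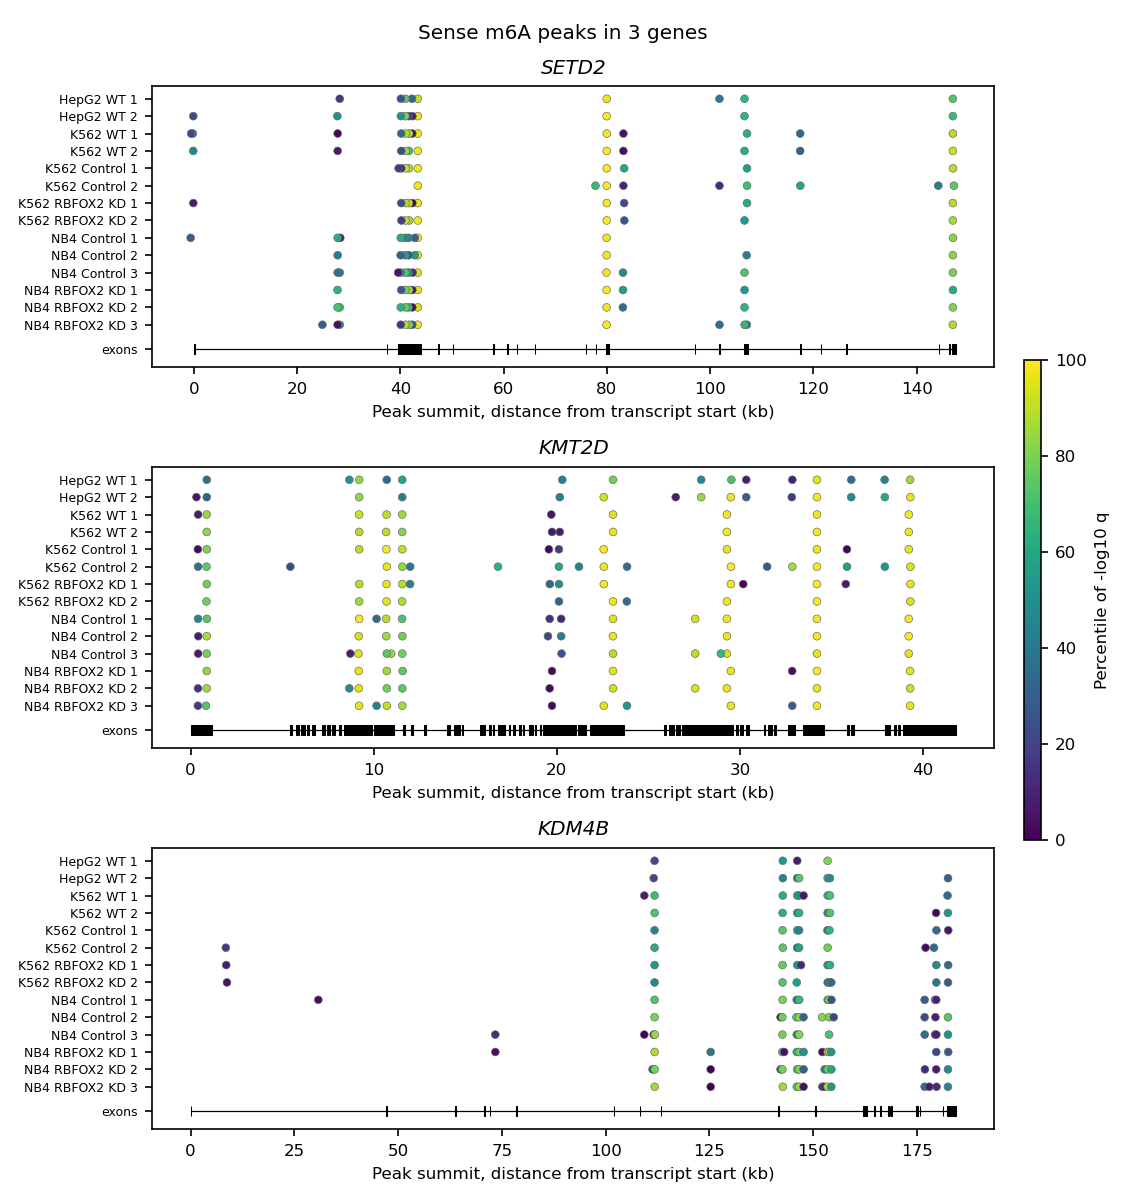
Peak summits of SETD2, KMT2D and KDM4B in the 14 IP libraries (rows), by distance from the transcript start in kb, with the percentile of -log10 q as colour and exons below. Most SETD2 and KMT2D summits stack over exons, with 30 of 144 and 32 of 176 in introns. Most KDM4B summits stack over introns of the canonical transcript, with 11 of 139 in the 3′ UTR.

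Summits fell in coding exons more often than for other genes. Over all libraries 47.8% of the peaks of the histone enzyme genes lay in a coding exon, against 28.6% of the 385417 pairs of a sense peak and a protein-coding gene. The share was above that of all genes in 14 of 14 libraries, at 41.8% to 61.8% against 25.9% to 35.3%. Introns held 33.4% against 43.6%, 3′ UTRs 11.2% against 14.3%, and 5′ UTRs 3.67% against 4.34%. The median coding share over libraries was above that of all genes in each of 4 classes of coding length. It was 33.3% against 20.3% below 1500 bases, 38.2% against 28.4% from 1500 to 3000, 41.3% against 35.3% from 3000 to 6000 and 65.8% against 46.9% above that. These comparisons with all genes are descriptions, since peaks of 1 gene are not independent.

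**Figure D3:**
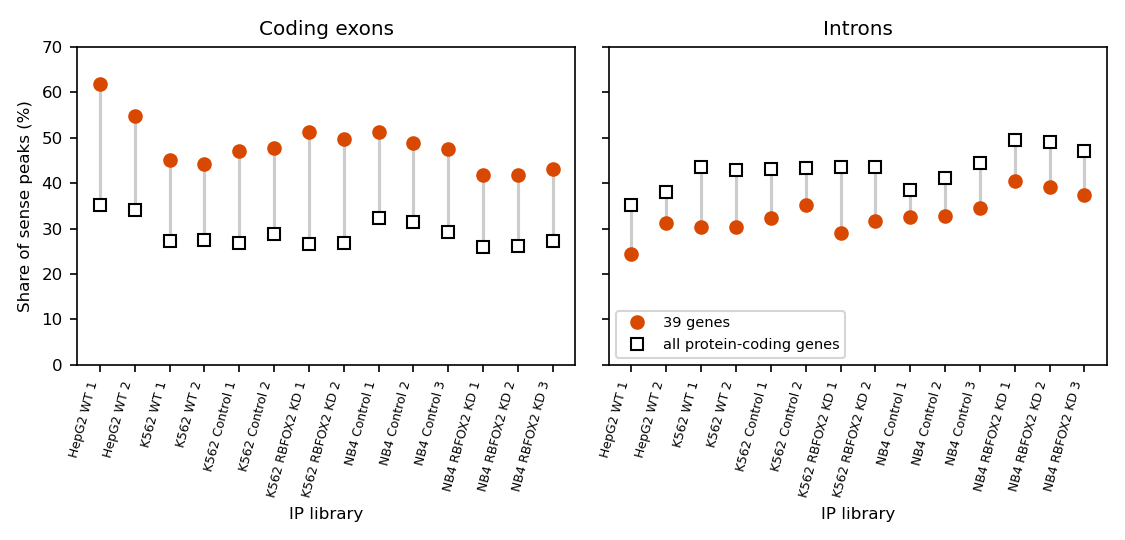
Share of sense peaks (%) with a summit in coding exons (left) and introns (right) in each IP library, for the 39 genes (filled circles) and all protein-coding genes (open squares). The circles lie above the squares in the left panel and below them in the right panel in all 14 libraries.

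Coding peaks were spread over many exons. Of 143 coding exons with a summit, 46 had one in all 14 libraries, and the 10 exons with the most held 310 of 1277 coding peaks, or 24.3%. Exon 3 of SETD2, 4367 bases long, held 63 peaks. Exon 3 of KMT2A held 44, exon 3 of KMT2B 35 and exon 27 of KMT2A 28, while exon 12 of KDM6B and exon 8 of KDM3B, an H3K9 demethylase gene, held 27 each. Summits within 200 mRNA bases of the stop codon made up a median of 8.35% of the peaks of these genes by library, against 11.2% for all genes.

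KDM4B (ENSG00000127663.15), an H3K9 demethylase gene, had another layout. Of its 139 peaks, 128 lay in introns, 11 in the 3′ UTR and 0 in coding exons, and 4 of its intron regions were listed in all 14 libraries. SETD4 had 15 of 16 peaks in an intron, and its best peak ranged from the 79.9th to the 99.6th percentile. Of the 165 intron regions in all the genes, 33 lay in an exon of another transcript of the gene, so intronic refers to the canonical transcript.

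Peaks from 1000 bases before the gene start to 100 bases after it numbered 2 to 5 in a library, a share of 1.60% to 2.34% by group, against 1.94% to 2.83% for all genes. KDM5A had one in 14 libraries, SETD1B in 13, SETDB2 in 8, SETD1A and KDM4C in 6 each, SETD2 in 5 and KMT5C in 2. K562 Control had 3.0 ± 1.4 (SD, n = 2) and K562 RBFOX2 KD 4.0 ± 1.4 (SD, n = 2), and the groups overlapped. K562 Control 1 alone had 4. NB4 Control had 4.67 ± 0.58 (SD, n = 3), and each NB4 RBFOX2 KD library had 5. The gene start is not always the start of the canonical transcript. The KDM4C region counted here lay at -37141 bases from the start of that transcript. Peaks near a canonical transcript start that lies further inside the gene, as in SETD7, were counted only where the summit fell in the window given above. A SETD1A region with its median summit at -325 bases from the canonical start was listed in 14 libraries. A KDM4C region at -182 bases was listed in 13 libraries and a KMT2E region at 153 bases in 12. The counts for SETD1A and KDM4C are therefore not counts of libraries with a peak near the canonical start.

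K562 and NB4 were compared over the 4 K562 and 6 NB4 libraries that carry a hairpin, with an exact two-sided permutation test within Control and within KD and Benjamini-Hochberg adjustment over 12628 genes. The smallest p this design allows is 0.01. KDM6A and KDM3A were higher in K562, 2 of 34 genes, where 19.0% of all genes were higher. In K562, 6 of 34 were lower, namely SETD7, KDM5C, KDM4B, SETD3, KDM2A and SETD1B, where 15.5% of all genes were lower. All 8 had an adjusted p of 0.029 by the exact test. These shares lie near or below the background.

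SETD7, a lysine methyltransferase gene, had no sense peak in the 4 hairpin K562 libraries and stood at 71.7, 73.9 and 67.7 in NB4 Control and 78.0, 71.5 and 56.6 in NB4 RBFOX2 KD. The 2 K562 WT libraries, which carry no hairpin, stood at 68.9 and 62.5 with 5 peaks each, so the absence was not shared by all K562 libraries. KDM5C, an H3K4 demethylase gene, stood at 39.3 and 37.9 in K562 Control and at 57.7 and 37.0 in K562 RBFOX2 KD, all below the NB4 range of 67.7 to 84.0. Its K562 WT values of 72.1 and 73.3 lay inside that range.

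KDM6A, an X-linked H3K27 demethylase gene, stood at 97.2 and 99.4 in K562 Control and at 99.2 and 98.6 in K562 RBFOX2 KD. The NB4 values were 94.7, 90.4 and 91.4 in Control and 92.2, 93.0 and 93.3 in KD, all lower, with a difference of 6.07 percentile points. KDM3A was 4.07 points higher in K562, but it had fewer peaks there, 1.25 against 3.17 a library. KDM4B was 10.3 points lower in K562 (75.4 ± 2.7, SD, n = 4, against 85.7 ± 3.5, SD, n = 6) and also had fewer peaks, 8.5 against 12.8. SETD3, an actin histidine methyltransferase gene, stood at 80.5 to 86.0 in K562 and at 84.7 to 96.9 in NB4, a range that overlapped across Control and KD but not within either. KDM2A stood at 88.6 to 92.6 in K562 and at 93.5 to 99.4 in NB4. SETD1B was lower in K562 by 3.68 points, with 14.25 peaks a library against 14.17.

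Without K562 Control 2 the smallest adjusted p is 0.0645, too large for a call, and since the groups do not overlap the direction could not change. The difference was then -69.9 for SETD7 and 5.52 for KDM6A. With every list cut to its 22700 most significant peaks, 1 gene was higher and 7 were lower, where 16.7% and 15.3% of all genes were. By number of peaks 4 were higher and 5 lower, where 13.1% and 12.1% of all genes were.

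**Figure D4:**
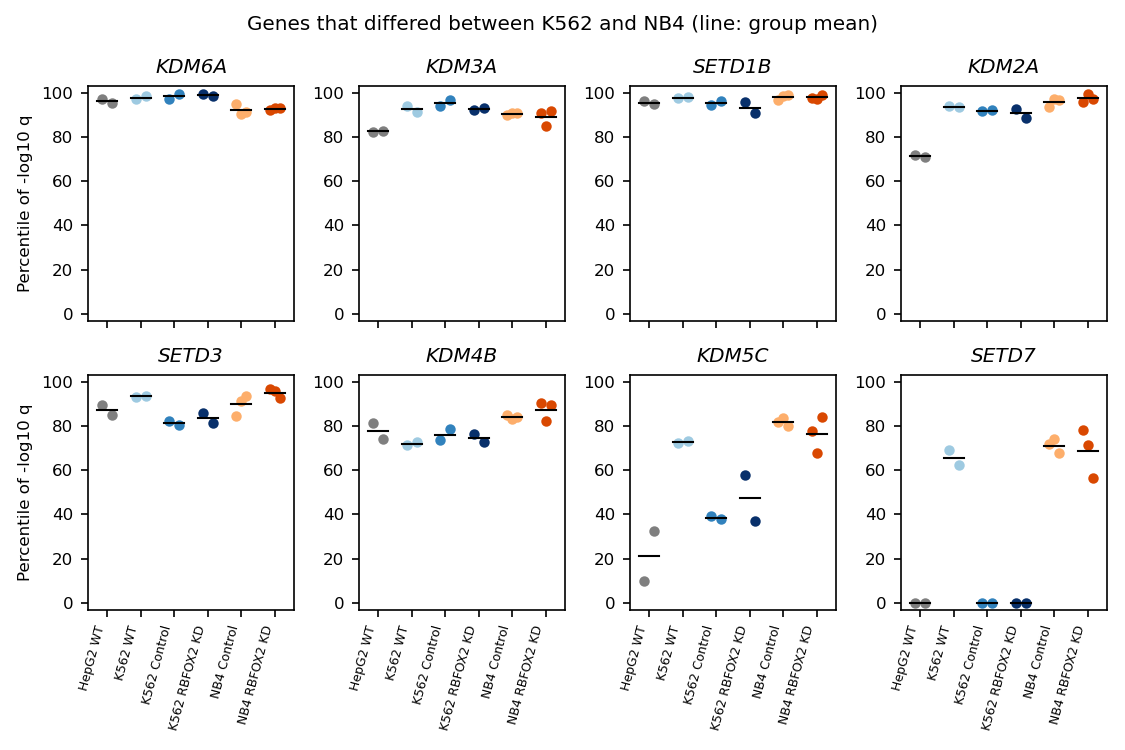
Percentile of -log10 q of the best sense peak (vertical axis) in each library (points) by group, with the group mean as a line, for the 8 genes that differed between the hairpin libraries of K562 and NB4. SETD7 and KDM5C in K562 WT lie with NB4 and not with the other K562 groups.

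In the WT lines, without a hairpin, 24 of 34 genes were higher in K562 than in HepG2 with no overlap between the groups, where 53.7% of all genes were. KMT5A, the H4K20 monomethyltransferase gene, stood at 74.8 and 74.1 in K562 WT and at 7.24 and 0 in HepG2 WT. KDM1A stood at 48.8 and 58.4 against 0 in both HepG2 libraries, where SETD7 was also without a peak. KDM5C stood at 72.1 and 73.3 against 9.86 and 32.3. KDM4B, KDM4C, KDM5D, KMT5B and SETD6 were lower in K562, 5 of 34, where 16.9% of all genes were lower. KDM4C stood at 73.8 and 65.8 in K562 and at 90.3 and 81.9 in HepG2. KDM4B stood at 71.4 and 72.6 in K562 and at 81.2 and 74.0 in HepG2, but by number of peaks it was 3 higher in K562. KMT5B and SETD6 were lower by 2.41 and 1.87 points. The median difference was 5.81 points for these genes and 7.94 for all genes. With equal list sizes 14 genes were higher and 7 lower, where 31.7% and 28.5% of all genes were. With a -log10 q-value of at least 10, 2 were lower, with KDM4B, KDM5D and SETD6 no longer apart. With 2 libraries a group, an exact permutation test cannot go below a p of 0.333.

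Within K562, Control was set against WT after the values were seen. Here 8 of 34 genes were higher in Control, where 19.4% of all genes were, and 11 were lower, where 32.1% were. KMT5A stood at 55.9 and 18.5 in Control against 74.8 and 74.1 in WT, and KDM4C at 91.01 and 88.05 against 73.8 and 65.8. Without K562 Control 2, 11 were higher and 14 lower, where 27.1% and 42.1% of all genes were. The hairpin, the culture and the depth of the libraries cannot be told apart here.

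RBFOX2 KD was compared with Control in each line. In K562, 5 of 34 genes were higher in KD with no overlap, where 8.47% of all genes were, and 4 were lower, where 12.6% were. KDM1A stood at 41.7 and 15.9 in Control and at 50.9 and 44.4 in KD. KMT5C, an H4K20 methyltransferase gene, stood at 86.7 and 82.8 in Control and at 89.2 and 88.7 in KD. The H3K4 demethylase gene KDM5B stood at 87.2 and 89.7 against 91.1 and 90.5, and KDM5A at 92.5 and 94.6 against 96.5 and 94.8. SETD5 was higher by 0.55 points, and by number of peaks its difference was -1.5. SETDB2 stood at 63.2 and 62.9 in Control and at 55.002 and 47.5 in KD. KDM4C, an H3K9 demethylase gene, stood at 91.01 and 88.05 in Control and at 84.4 and 81.4 in KD. KDM3A stood at 94.0 and 96.5 against 92.1 and 92.9, and KMT5B at 97.8 and 98.5 against 97.1 and 97.2. An exact permutation test of 2 against 2 cannot go below a p of 0.333. Without K562 Control 2 the difference for KDM1A was 5.92 and the one for SETDB2 was -11.98, and the direction could not change because the groups do not overlap.

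In NB4, 5 of 34 genes were higher in KD with no overlap, where 12.1% of all genes were, and 0 were lower, where 5.19% were. SETD6, a lysine methyltransferase gene, stood at 74.96, 75.99 and 57.5 in Control and at 95.7, 88.3 and 78.8 in KD. KMT5B stood at 84.7, 82.6 and 93.4 in Control and at 94.5, 95.6 and 95.0 in KD. KDM6B stood at 93.8, 94.9 and 89.4 in Control and at 97.0, 96.6 and 98.8 in KD. KDM2B, an H3K36 demethylase gene, stood at 93.9, 92.6 and 89.3 in Control and at 94.3, 95.8 and 99.0 in KD. KDM5A was higher by 3.17 points, a call lost when the window began at the gene start (4.51 points, with overlap). By number of peaks the differences of SETD6 and KDM6B were -0.333 each. The smallest p of this design is 0.1. The NB4 RBFOX2 KD lists were also longer, 36777 to 39803 peaks against 29609 to 33497. With equal list sizes 3 genes were higher and 2 lower, where 6.83% and 9.23% of all genes were. KDM2B and SETD6 then overlapped, with larger differences of 5.19 and 22.7 points, and KDM3A and KMT5C were lower.

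Over both lines together, KDM5A alone was higher in KD at an unadjusted exact permutation p of 0.0167, the smallest possible, where 2.64% of all genes were. It was 2.64 points higher, and the adjusted p was 0.739. Of the 34 genes 0 were lower, where 1.24% of all genes were. At an adjusted p under 0.05 the exact test called 0 genes.

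**Figure D5:**
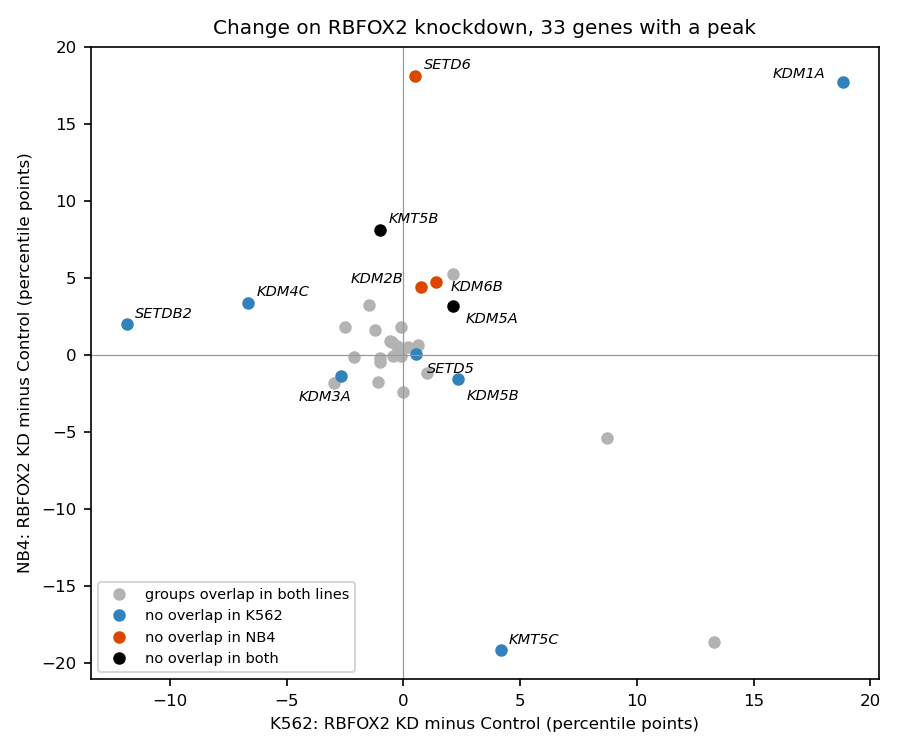
Change of the percentile of -log10 q on RBFOX2 KD (KD minus Control, percentile points) in K562 (horizontal axis) and NB4 (vertical axis) for 33 genes with a peak (points; KDM5D is not drawn), coloured by whether the groups were free of overlap. KDM5A was higher in both lines, and KMT5B was lower in K562 and higher in NB4.

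Whole regions seldom came or went. In K562, 5 of 226 regions were listed in both Control and in no KD library, where 1.75% of all sense regions were. They lay in exon 4 and intron 10 of KMT2A, intron 17 of KMT2B, intron 16 of SETDB1 and the 5′ UTR of KMT2D. All were weak, with mean percentiles of 20.3 to 41.4 in Control. The KMT2D one was part of a wider region, merged over all libraries, that was listed in all 14. Without K562 Control 2, 10 of 195 were lost and 6 gained, where 5.47% and 4.03% of all were. A region in intron 11 of KDM7A was gained, 1 of 226, where 1.31% of all were. In NB4 1 of 274 was lost, in exon 32 of KMT2D, where 0.465% of all were. This region too was part of a wider one listed in all 14 libraries, and exon 32 held a summit in each of the 14. In NB4 5 were gained, where 3.46% were. They lay in intron 3 and the 3′ UTR of KDM5A, the 5′ UTR of SETD1A, intron 21 of KDM4C and intron 9 of KDM4B, with mean percentiles of 13.5 to 38.7 in KD.

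Gene parts differed between KD and Control in NB4, for these genes and for all genes. The coding share of the peaks of these genes was 42.3% ± 0.74 (SD, n = 3) in KD and 49.2% ± 1.9 (SD, n = 3) in Control, with no overlap. All protein-coding genes went from 31.1% ± 1.6 (SD, n = 3) to 26.5% ± 0.73 (SD, n = 3), also with no overlap. The intron share of these genes went from 33.3% ± 1.2 to 39.03% ± 1.5 (SD, n = 3 each), and that of all genes from 41.4% ± 2.9 to 48.5% ± 1.2 (SD, n = 3 each). The lists were longer in KD, and the part of list length in these shares was not tested. In K562 the coding share of these genes went the other way, also with no overlap. It was 50.5% ± 1.2 in KD and 47.5% ± 0.47 in Control (SD, n = 2 each), and 47.2% in K562 Control 1 alone. For all genes it was 26.7% ± 0.15 in KD and 27.8% ± 1.5 in Control (SD, n = 2 each), with overlap.

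Related genes outside the name rule were listed too. Of 19 other histone methyltransferase genes 18 were tested, and 5 were higher in K562 than in NB4 (ASH1L, SMYD2, MECOM, SUV39H2 and EZH1) and 0 lower. Of 15 genes for complex subunits 14 were tested, and 5 were lower in K562 (HDAC1, ASH2L, RCOR1, PAGR1 and CXXC1) and 0 higher. Of 7 other demethylase genes 5 were tested, with PHF2 lower. Over all genes 19.0% were higher and 15.5% lower. In NB4 RBFOX2 KD 5 of the methyltransferase genes and 3 of the subunit genes were higher than in Control with no overlap, and 0 were lower in any of the lists, where 12.1% of all genes were higher and 5.19% lower. In K562 the other methyltransferase genes had 1 higher and 3 lower in KD, the other demethylase genes 0 and 2, and the subunit genes 1 and 3, where 8.47% and 12.6% of all genes were.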

How the data were processed

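MeRIP-seq IP libraries of caRNA from 14 samples were used as the peak lists deposited for them. According to the methods, reads were trimmed with Trimmomatic 0.39, aligned with HISAT 2.1.0 to hg38 by strand with GENCODE 29, split by strand with samtools 1.9, and peaks were called with MACS at a q-value under 0.01. Whether the matched input served as background is not given in the sources used here. The authors' lists give each peak a fold over background, a -log10 p-value and -log10 q-value, and a score, which in the deposited files was the -log10 q-value multiplied by 10 and cut to a whole number.

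Summits were assigned to GENCODE 44 genes. Genes with a peak in any library were tested (12628), with Python 3.11.15, numpy 2.4.6, pandas 2.3.3 and scipy 1.17.1, and the procedure was tested on simulated data. Groups came from the labels. Replicates are separate samples by label, and p-values measure the spread between them, which may be technical. Named genes were the 8 with the highest medians, the 5 with the most peaks, those with no peak, and in each direction up to 6 called between K562 and NB4, 4 per line on KD and 4 between the WT lines. Recovered effective reads ranged from 10.8 to 30.04 M by library, approximate for HepG2 WT 1, HepG2 WT 2 and NB4 Control 3, whose pileups were not whole numbers. The genes and lists were chosen with earlier results of these data known. Alternatives were a stricter q-value, equal list sizes, p-values rescaled to the depth of the shallowest library, peak number, the gene window, no filter on genes, leaving out each replicate and a replicate block.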

Additional observations from a re-analysis of the deposited data

Results flagged for a closer look

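KMT5B, an H4K20 methyltransferase gene, moved in opposite directions on RBFOX2 KD in the 2 lines, with every KD library on one side of every Control library. The change was -1.004 percentile points in K562 and 8.14 in NB4. The difference between the changes was -9.15 points, with an exact permutation p of 0.0167 and a Benjamini-Hochberg adjusted p of 0.691 over 12628 genes, so it did not pass after adjustment.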

How the results depend on the processing

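The counts of genes called were 8 for K562 against NB4 and 9 and 5 for RBFOX2 KD in K562 and NB4. They were 0 over both lines and 29 for K562 WT against HepG2 WT. The shares of all genes stand with these results above, and over both lines 0% of all genes were called. A -log10 q-value of at least 10 gave 8, 9, 5, 0 and 26. Of all genes 18.9% and 15% were then higher and lower between K562 and NB4, and 55.3% and 14.7% between the WT lines. On KD it was 8.47% and 12.2% in K562 and 12.1% and 5.06% in NB4. With p-values rescaled to the depth of the shallowest library the counts were 8, 9, 5, 0 and 27. The shares of all genes, in the same order, were 19.1% and 15.5%, 55.3% and 15.5%, 8.68% and 12.5%, and 12% and 5.41%. With the number of peaks as the gene value the KD count was 4 in K562, where 2.71% of all genes were higher and 4.19% lower. It was 3 in NB4, where 7.4% of all genes were higher and 1.31% lower. By this value KDM3A (-1.92) and SETD1B (0.083) turned between K562 and NB4, as did SETD5 (-1.5), KDM6B (-0.333) and SETD6 (-0.333) on KD. Between the WT lines KMT2B (-2.5), KMT2D (-5), KDM5A (-1), KMT5B (0.5), SETD6 (0.5) and KDM4B (3) turned, and with equal list sizes KDM5B (-1.55) and KDM6A (-0.040). Equal list sizes raised the coding share, as a mean over the 14 libraries, from 48.3% to 54.3%. The 47.8% given above was taken over all peaks together. Leaving out 1 library gave 0 to 9 genes for K562 against NB4, where 0% to 35.9% of all genes were called. It gave 18 to 26 for KD in K562 (42.3% to 55.1% of all genes) and 7 to 10 for KD in NB4 (23.1% to 27.5%). For the WT lines it gave 31 to 33 (76.3% to 79.8% of all genes), and over both lines 0 (0%). The coding share was then 47.3% to 48.8%. Without any 1 of the hairpin K562 libraries the smallest p of the exact test in the line comparison was 0.025. The smallest adjusted p was then 0.0645 to 0.0682, so 0 genes were called. The count was also 0 without NB4 RBFOX2 KD 2, where the smallest adjusted p of the exact test was 0.0502. Without NB4 RBFOX2 KD 1 or 3 that adjusted p was 0.0498 and 0.0494, with 6 and 7 genes, where 33.5% and 33.7% of all genes were called. Chosen after seeing the data, leaving out K562 Control 2 changed the regions lost on KD in K562 from 5 to 10, those gained from 1 to 6, and the genes apart between K562 Control and WT from 19 to 25. Fewer libraries overlap less easily, which raises the no-overlap counts. A replicate block, asking for the same direction in each same-numbered pair, gave 14 in K562 and 7 in NB4. The share of all genes under this rule is not given here, so these 2 counts cannot be set against a background. Deviations of the gene values from their group mean correlated between same-numbered Control and KD libraries at -0.068 in K562. In NB4 these correlations were -0.069, -0.081 and -0.188. They are not correlations of the gene values themselves. With 2 or 3 libraries a group, these values cannot show whether same-numbered samples were prepared together. A gene without a peak was not detected at this depth, which does not show that it lacks m6A.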
